A study of Mus musculus with 2 samples.

Results

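Fibroblast nuclei without Slc47a1 are droplet barcodes that held transcripts of fibroblast genes and no transcript of Slc47a1, a multidrug and toxin extrusion carrier. A barcode belonged to the group when at most 5% of its UMIs (unique molecular identifiers, 1 per captured RNA molecule) came from mitochondrial genes and Slc47a1 had 0 UMIs. It also needed at least 1 UMI in at least 3 of 8 marker genes (Dcn, Col1a1, Col1a2, Col3a1, Lum, Slc6a13, Apod and Lama1), and in at most 1 of 6 genes of other cell types (Slc17a7, Gad2, Mog, Csf1r, Flt1 and Acsbg1). The rule found 151 of 17501 barcodes, 63 in library 1 and 88 in library 2. They were 0.734% of the 8585 barcodes of library 1 within the mitochondrial limit (exact 95% Clopper-Pearson interval 0.564 to 0.938) and 1.06% of 8274 in library 2 (0.854 to 1.31).

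The nuclei came from frozen cerebral cortex of untreated wild-type C57BL/6 mice and were profiled on the 10x Genomics Chromium platform. An aged group of 18 months and a young group of 2 months were each a pool of 3 mice, and the design text gives the ages as 18 to 22 and 2 to 3 months. The study asked how transcripts related to the blood-brain barrier differ with natural ageing. Both groups share 1 matrix, and no label ties a barcode suffix to an age. Suffix 1 is called library 1 and suffix 2 library 2, and their values are set side by side with no age attached, no replicate and no test. All intervals are exact 95% intervals that cover counting error only.

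Fibroblasts of the brain lie in the meninges and along larger vessels, where they lay down collagens, laminins and proteoglycans. The pia, arachnoid and dura each hold fibroblasts of their own, which differ in the carriers and matrix genes they express. Meningeal fibroblasts are also known as a source of retinoic acid, bone morphogenetic proteins and prostaglandin D synthase.

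The members were shallower than most nuclei, with a median of 3256 UMIs in library 1 and 3343.5 in library 2, against 6141.5 and 6604.5 in all other nuclei within the mitochondrial limit (called other nuclei below). Single members ranged from 1729 to 20777 UMIs and from 1333 to 15616 UMIs. The libraries shared 19 barcode sequences, of which members had 0.

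When all nuclei were clustered on their 2000 most variable genes, 125 of the 151 members (82.8%) fell in 1 of 31 clusters, numbered 26. That cluster took in 54 of 63 members of library 1 and 71 of 88 of library 2, and its leading genes were Gm30613, Slc6a12, Slc22a2, Slc6a13, Col4a6, Aldh1a2, Svep1, Slc22a6, Ranbp3l and Aox3. It held 228 nuclei, 113 in library 1 and 115 in library 2, and 103 of them were no members. Of those 103 nuclei, 66 had UMIs in more than 1 of the 6 genes of other cell types. Fewer than 3 of the 8 markers were found in 50 of them. All 103 were counted among other nuclei, and the share of members is not the share of nuclei in that cluster. The other 26 members lay in 12 clusters, among them 8 in cluster 29, all from library 2, which was led by Vsx1 and Slc47a1. Of the rest, 5 lay in cluster 8, led by Gm29260 and Dcaf12l1, 2 in cluster 15, led by endothelial genes such as Slco1a4 and Flt1, and 1 or 2 in each of the others, such as cluster 2, led by Pdgfra and Cspg4. Members outside cluster 26 had a median of 7648 UMIs against 3224 inside it, so these few nuclei carried 35.4% of the members' UMIs in library 1 and 31.4% in library 2. The name fibroblast describes the members of cluster 26 better than those outside clusters 26 and 29. Levels in cluster 26 are given beside the main results and are those of its members only. The 8 members in cluster 29 were not described apart from the other members outside cluster 26. The clusters were drawn from these same genes, so a cluster's levels are a description.

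**Figure D1:**
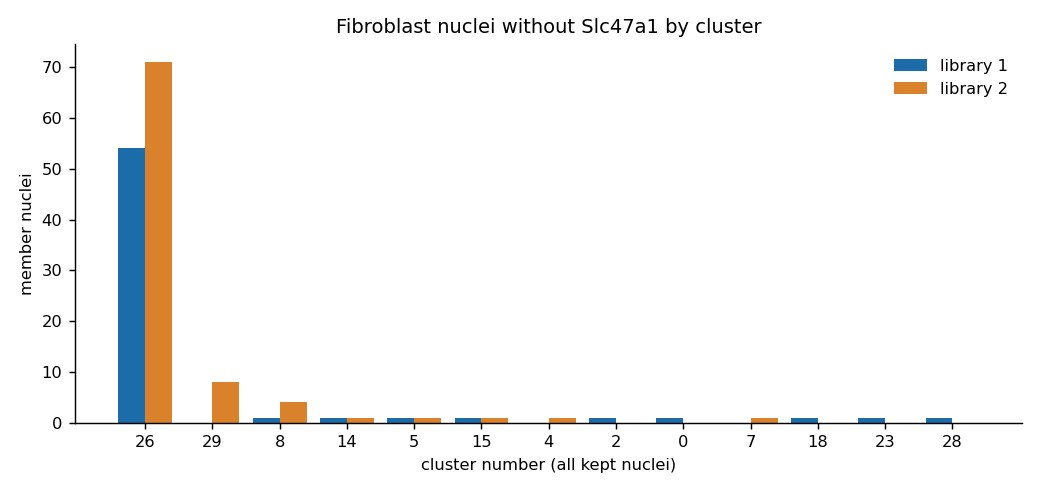
Number of member nuclei (y axis) in each cluster of all nuclei within the mitochondrial limit (x axis, cluster number), for library 1 (blue) and library 2 (orange). Cluster 26 took 54 and 71 members, and cluster 29 took 8 of library 2 and 0 of library 1.

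Fibroblast markers outside the rule were present as well. All 18 of 18 such genes had UMIs in both libraries, but some had few, such as Twist1 with 3 and 1. All 18 also had UMIs in other nuclei of both libraries and in mural nuclei of library 2. The count of genes therefore does not mark fibroblasts. Together the 18 genes stood at 4400 CPM (UMIs of a gene per 1000000 UMIs of the group) and 3855 CPM, against 236 and 198 CPM in other nuclei. In nuclei that met the rule but held Slc47a1 the sum was 2221 and 3668 CPM. It was 1318 and 709 CPM in mural nuclei and 613 and 650 CPM in endothelial nuclei. In the members of cluster 26 the sum of the 18 genes was 6423 and 4788 CPM, and in the members outside it 715 and 1819 CPM. The 7 neuronal markers together reached 4234 and 3501 CPM in the members and 6817 and 6260 CPM in other nuclei, and every member nucleus held some of them. In the members of cluster 26 the neuronal sum was still 3076 and 3034 CPM. The 10 mural markers together stood at 569 and 834 CPM, against 79.0 and 140 CPM in other nuclei, and the 8 endothelial ones at 556 and 449 CPM, against 158 and 345 CPM. The 7 astrocyte markers stood at 374 and 713 CPM in the members and 639 and 858 CPM in other nuclei. Of them Slc7a10 was at 0 in both libraries of the members and Acsbg1, which the rule limits, at 0 in library 1. The 7 oligodendrocyte markers stood at 565 and 610 CPM, against 584 and 774 CPM. The part of these transcripts in the levels below was not tested.

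The 8 genes that chose the members were found in unequal numbers of them. Apod, a secreted lipid carrier, had UMIs in 58 of 63 and 76 of 88 members and stood at 705 and 1008 CPM. Lama1, the laminin alpha chain of the pial basement membrane, was found in 48 and 58 members, and Slc6a13, a GABA and betaine carrier, in 50 and 53. Col1a2 and Dcn, the proteoglycan decorin, were found in 29 and 25 members of library 1 and in 60 and 55 members of library 2. Col3a1 was seen in 16 and 23 members, Col1a1 in 16 and 37, and Lum, the proteoglycan lumican, in 4 and 20. Since these genes set membership, their levels are no finding.

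The lower edge of the rule held many nuclei. Exactly 3 of the 8 markers were found in 25 and 34 members, and 84 and 153 barcodes with only 2 markers lay just outside. A single gene of another cell type was found in 48 and 47 members, most often Slc17a7 (20 and 24 members), the vesicular glutamate carrier, or Flt1 (20 and 15), a VEGF receptor. In addition 24 and 24 barcodes with 2 such genes lay just outside, as did 1 and 5 barcodes with a single Slc47a1 UMI. Of endothelial nuclei, which should lack Slc17a7, 42.4% and 41.6% also had a UMI of it, at median depths of 2651.5 and 2783 UMIs. With each nucleus thinned to 1500 UMIs, it was found in 29.9% and 23.1% of endothelial nuclei and in 14.3% and 9.2% of members. The rule itself limits Slc17a7 in the members, and the endothelial nuclei were chosen with a similar limit that includes Slc17a7. The endothelial shares therefore do not set a background level for the members. The source of the Slc17a7 UMIs in the members was not tested.

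**Figure D2:**
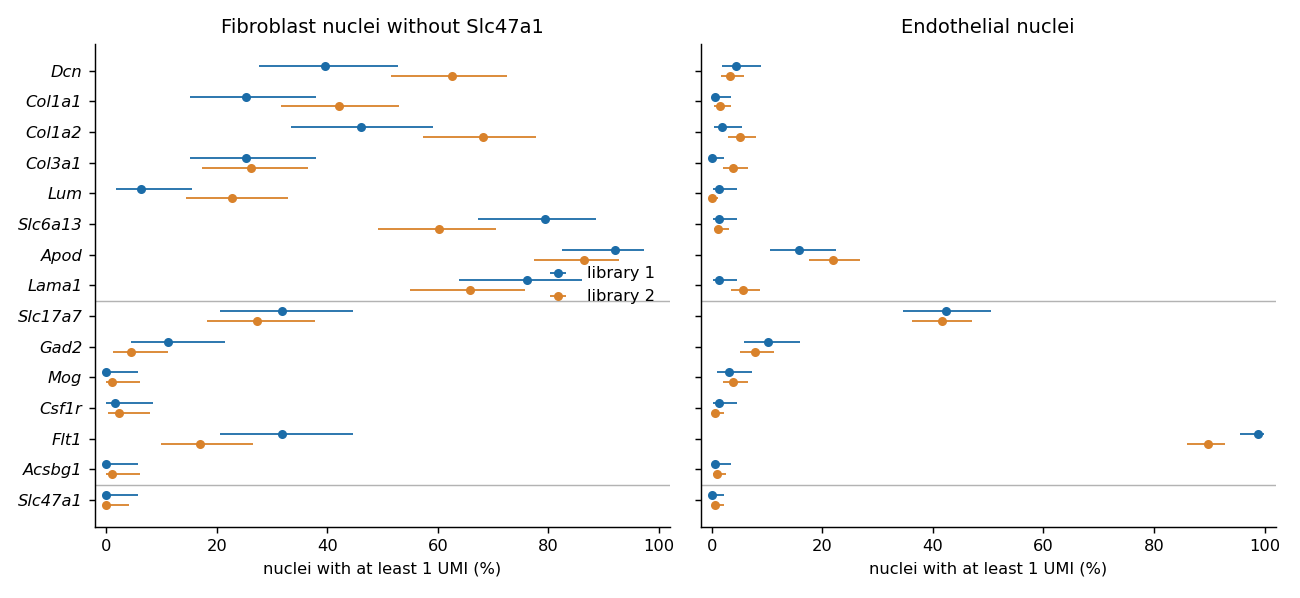
Share of nuclei with at least 1 UMI (x axis, percent) for the 8 markers, the 6 genes of other cell types and Slc47a1 (y axis), in the members (left) and in endothelial nuclei (right); points are libraries and bars are exact 95% intervals for counting error. Apod was found in 92.1% and 86.4% of members and in 15.8% and 22.0% of endothelial nuclei.

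The members themselves differed in which markers they carried. At least 1 of the 5 matrix genes (Dcn, Col1a1, Col1a2, Col3a1 and Lum) was found in 54 of 63 and 81 of 88 members, and at least 3 of the 5 in 9 (14.3%) and 36 (40.9%). The 9 and 7 members with none of them entered through Slc6a13, Apod and Lama1 alone. Those few nuclei carried high levels of carrier and meningeal enzyme transcripts. Slc6a20a, a carrier for proline and related amino acids, stood at 2812 and 3118 CPM in them, against 387 and 1339 CPM in the members with at least 3 matrix genes. Ptgds, which makes prostaglandin D2, stood at 4017 and 1715 CPM against 356 and 615, and Slc13a3, a dicarboxylate carrier, at 511 and 507 CPM against 31.0 and 130. Apoe, a lipid carrier, showed the other order, at 548 and 585 CPM in the members without matrix genes against 944 and 1983 CPM in those with at least 3. Membership in these subsets came from the members' own counts, so the values are given without a test.

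Against other nuclei, 293 of 6337 genes (4.62%) stood at least 4-fold higher in the members of both libraries, and 0 (0.0%) stood at least 4-fold lower. A gene entered when its mean CPM over the 2 groups was at least 20 in each library, and a group with fewer than 3 UMIs was set to 3 UMIs in a ratio. The rule chose its nuclei in this contrast, so the counts describe the members and support nothing further. Among the genes highest in the members were Ranbp3l, Slc6a20a, Colec12 and Bmp6. The median log2 ratio over all genes was 0.16 in library 1 and 0.31 in library 2. List counts against other nuclei below stand beside the 4.62% of all genes.

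Membrane carriers for small solutes are a known mark of meningeal fibroblasts. Of 22 listed carriers that entered the comparison, none of them in the rule, 10 stood at least 4-fold higher and 0 at least 4-fold lower. Slc6a20a reached 1238 CPM (1117 to 1369) in library 1 and 1506 CPM (1386 to 1632) in library 2, against 17.5 and 22.8 CPM in other nuclei. Slc7a11, the cystine and glutamate exchanger, stood at 1765 CPM (1619 to 1919) and 1129 CPM (1026 to 1239), against 20.8 and 29.4 CPM. Slc1a3, the glutamate carrier GLAST that is best known from astrocytes, was at 978 and 1023 CPM in the members and at 87.5 and 109 CPM in other nuclei. For each of these carriers the members' interval lay above the level of other nuclei in both libraries.

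Slc13a3 stood at 159 and 226 CPM, and Slc22a6, an organic anion carrier, at 101 and 110 CPM. Slc22a8, its neighbour on chromosome 19 at a distance of 6203 bases, stood at 146 and 164 CPM, and Slc13a4, a sulfate carrier, at 192 and 149 CPM. Slc6a12, a betaine carrier that lies 5342 bases from the rule gene Slc6a13 on chromosome 6, was at 68.2 CPM (42.2 to 104) and 41.0 CPM (23.5 to 66.6). In other nuclei Slc6a12 stood at 0.459 and 0.629 CPM and Slc22a6 at 1.50 and 1.68 CPM. In the members of cluster 26 alone, Slc7a11 stood at 2477 and 1601 CPM and Slc13a3 at 247 and 322 CPM.

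Of the retinoid, prostaglandin and lipid carrier list, 5 of 6 genes that entered stood at least 4-fold higher. Aldh1a2, which makes retinoic acid from retinal, reached 162 CPM (121 to 214) and 151 CPM (115 to 195), against 1.68 and 2.57 CPM in other nuclei. In library 1 a single nucleus held 32.0% of its UMIs. Aldh1a1, another retinal dehydrogenase, stood at 296 and 151 CPM against 14.3 and 19.4 CPM. Ptgds reached 1498 CPM (1364 to 1641) and 790 CPM (704 to 883), and Apoe 663 and 1090 CPM against 148 and 232 CPM. Aox3, an aldehyde oxidase outside the list, stood at 237 and 249 CPM against 2.40 and 2.23 CPM in other nuclei.

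Signalling genes included ligands and receptors. Of 20 growth factor and receptor genes that entered, 10 stood at least 4-fold higher. Bmp6, a bone morphogenetic protein, was at 1069 CPM (957 to 1191) and 1031 CPM (933 to 1137) against 17.8 and 20.9 CPM. Bmp5 and Bmp7, of the same family, stood at 74.7 and 100 CPM and at 78.0 and 123 CPM. Among receptors, Pdgfra was at 149 and 100 CPM, Pdgfrb at 78.0 and 71.8 CPM, and Tgfbr3, a TGF-beta co-receptor, at 409 and 446 CPM. Cp, the copper oxidase ceruloplasmin, was the only gene past 4-fold among 5 of iron and copper handling, at 741 and 870 CPM against 14.8 and 23.4 CPM. Of the complement and cytokine list 3 of 7 stood at least 4-fold higher, beside 4.62% of all genes. Among them were Serping1, the C1 inhibitor, at 61.7 and 43.6 CPM, and Il6st, a cytokine receptor chain, at 97.5 and 92.3 CPM. Against endothelial nuclei 1 of 12 listed genes stood at least 4-fold higher and 1 lower, with median log2 ratios of -1.46 and -0.89. Against mural nuclei 1 of 11 stood higher and 0 lower, with medians of -0.61 and -0.58.

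Of 16 transcription factors known from mesenchyme and meninges that entered, 11 stood at least 4-fold higher. Against mural nuclei 5 of 17 stood at least 4-fold higher and 1 lower. Against nuclei that met the rule but held Slc47a1, 0 of 17 stood at least 2-fold higher and 3 lower, so the list did not set the members above these nuclei. Tbx18 stood at 185 and 121 CPM against 2.79 and 3.15 CPM in other nuclei, Zic4 at 208 and 169 CPM against 4.34 and 5.36, and Foxc1 at 71.5 and 61.6 CPM against 3.64 and 5.85. Eya1, a transcriptional coactivator, was found in 46 of 63 and 61 of 88 members, at 435 and 436 CPM. Ranbp3l, a nuclear export protein related to RanBP3, was found in 50 and 69 members at 1199 CPM (1080 to 1328) and 1575 CPM (1453 to 1704), against 13.9 and 20.5 CPM. It stood at 1832 and 2222 CPM in the members of cluster 26 and at 45.8 and 163 CPM in those outside it. Gm30613 had the largest ratio of all, but a single nucleus held 60.0% of its UMIs in library 1 and 45.8% in library 2. It is annotated as an antisense gene, and the strand of counting is not given in the sources used here.

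Of the immediate early genes 4 of 10 stood at least 4-fold higher than in other nuclei, beside 4.62% of all genes. They were Egr1, Fos, Junb and Btg2. Against endothelial nuclei 0 of 12 listed genes stood at least 4-fold higher and 1 lower, and against mural nuclei 1 of 12 higher and 0 lower. Egr1 was at 367 CPM (303 to 442) and 205 CPM (163 to 255), against 67.8 and 50.5 CPM in other nuclei. In the members of cluster 26 it was at 529 and 251 CPM. Of 13 junction genes, Gja1, Gjb2, Gjb6 and Cdh5 stood at least 4-fold higher than in other nuclei. Against endothelial nuclei 3 of 16 stood at least 4-fold higher and 2 lower, and against mural nuclei 2 of 16 higher and 2 lower. Against nuclei that met the rule but held Slc47a1, 0 of 15 stood at least 2-fold higher and 2 lower. Cdh5, the VE-cadherin gene, was at 68.2 and 46.2 CPM. The sum of the 8 endothelial markers had a median of 0 CPM per member and a highest value of 8087 and 9312 CPM. The source of the Cdh5 UMIs was not tested. Gja1, which encodes connexin 43, was at 120 CPM (84.7 to 166) and 136 CPM (102 to 178), and Gjb6, another connexin gene, at 159 and 74.4 CPM.

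Among matrix genes outside the rule, 6 of 14 collagen chains, 9 of 13 matrix glycoproteins and laminins and 1 of 6 collagen processing enzymes stood at least 4-fold higher. Both proteoglycans that entered, Ogn and Fmod, were among them. Against mural nuclei 1 of 17 matrix glycoproteins and laminins stood at least 4-fold higher and 0 lower, beside 1.53% and 0.952% of all genes. Of the collagen chains 5 of 15 stood higher there and 0 lower. Against nuclei that met the rule but held Slc47a1, 1 of 19 matrix glycoproteins and laminins stood at least 2-fold higher and 4 lower. Of all genes 2.68% and 3.83% did so. Lama2 was at 881 and 695 CPM, against 53.5 and 47.8 CPM in other nuclei. Svep1, a large adhesion protein, stood at 114 and 172 CPM, and Adamts12, a secreted protease, at 208 and 228 CPM. By contrast the ubiquitous basement membrane chains Col4a1 (68.2 and 110 CPM) and Col4a2 (29.2 and 139 CPM) were not past 4-fold.

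**Figure D3:**
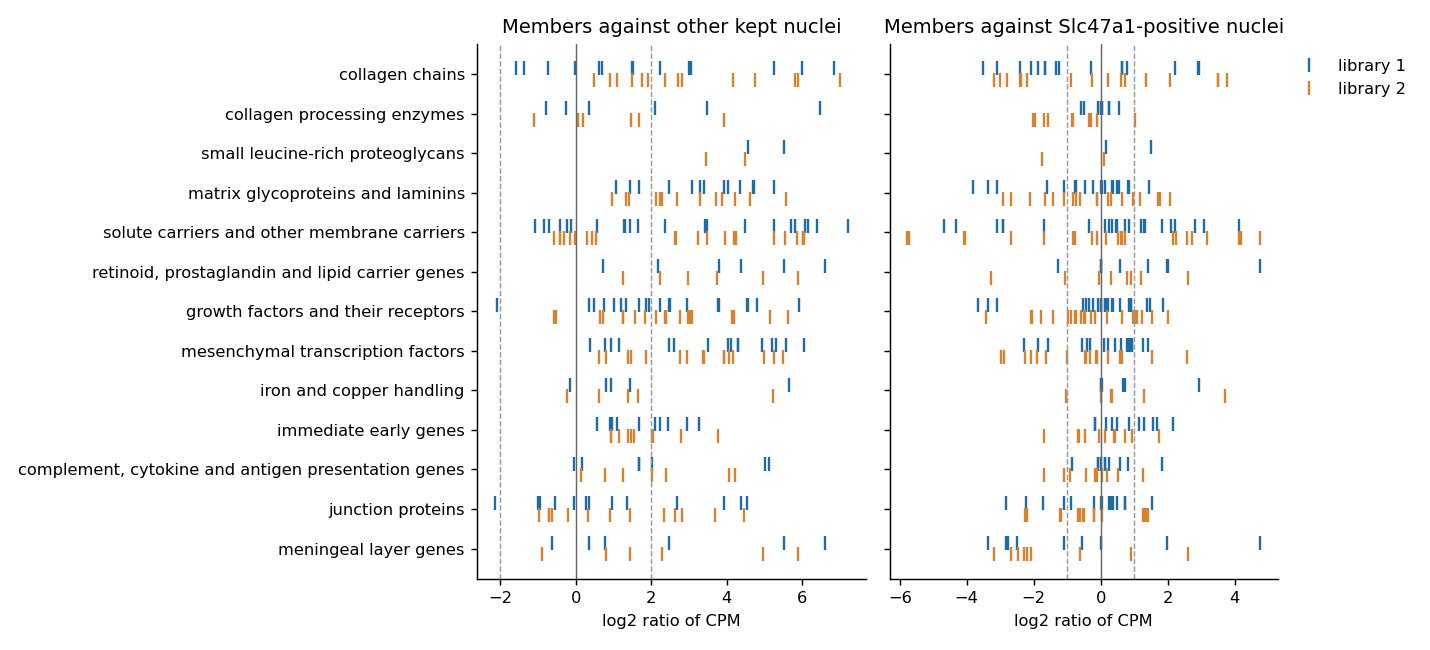
Log2 ratio of CPM in the members (x axis) for each listed gene outside the rule that entered the comparison, against other nuclei (left) and against Slc47a1-positive nuclei (right), with lists on the y axis. Ticks are genes, blue for library 1 and orange for library 2, and dashed lines mark 4-fold (left) and 2-fold (right); of the carriers 10 of 22 passed 4-fold on the left in both libraries.

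Col4a5 and Col4a6 were the collagen chains with the largest ratios. They encode the alpha 5 and alpha 6 chains of type IV collagen, which assemble in the basement membranes of few tissues, and they lie head to head on chromosome X. Col4a5 runs from 141475385 to 141689234 on the plus strand (mm10, GENCODE vM21) and Col4a6 from 141165403 to 141474076 on the minus strand, with 1309 bases between their GENCODE starts. Col4a5 had 96 UMIs in 44 members of library 1 and 111 UMIs in 47 members of library 2, which is 312 CPM (253 to 381) and 285 CPM (234 to 343). Col4a6 had 98 UMIs in 38 members and 132 UMIs in 40, which is 318 CPM (259 to 388) and 339 CPM (283 to 401). Other nuclei held 4.93 and 4.83 CPM of Col4a5 and 2.77 and 2.62 CPM of Col4a6. The 2 genes thus stood high together in both libraries, and at most 15.3% of either gene's UMIs came from 1 nucleus.

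The 250 bases before each RefSeq start are shown because the 2 genes share this stretch of the X chromosome. RefSeq places the start of Col4a5 downstream of the GENCODE one, so its window ends inside the GENCODE gene. The windows are from RefSeq on GRCm38.p6, each read 5′ to 3′ on the gene's own strand, and capitals mark GGGCGG or its reverse complement CCGCCC. Col4a5 is at chrX:141475169-141475418 on the plus strand and Col4a6 at chrX:141474077-141474326 on the minus strand.
Col4a5: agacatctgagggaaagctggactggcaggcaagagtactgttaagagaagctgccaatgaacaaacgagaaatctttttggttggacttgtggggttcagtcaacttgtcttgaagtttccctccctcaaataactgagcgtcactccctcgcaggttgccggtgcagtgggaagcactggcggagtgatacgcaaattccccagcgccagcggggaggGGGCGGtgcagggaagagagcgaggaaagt
Col4a6: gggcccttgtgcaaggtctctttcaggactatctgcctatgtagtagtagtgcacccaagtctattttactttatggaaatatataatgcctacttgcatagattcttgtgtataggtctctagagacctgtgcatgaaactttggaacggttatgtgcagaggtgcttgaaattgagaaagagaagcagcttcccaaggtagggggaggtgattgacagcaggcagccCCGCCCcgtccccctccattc
Each window held 1 match to GGGCGG or CCGCCC, letters matched in 32.7% of 32851 windows of the same length, and 0 matches to TATAAA or TTTATA, matched in 12.4%. The windows lie on opposite strands and do not overlap each other. A match to these letters is a description of the window and not a shown binding site.

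The nuclei most like the members were those that met the same rule but held at least 1 Slc47a1 UMI. They numbered 7 in library 1 and 24 in library 2, and 1 nucleus of 46030 UMIs made up 63.5% of their UMIs in library 1. Their median depth was 4468 and 4072 UMIs against 3256 and 3343.5 in the members, and the part of depth in the comparison was not tested. Since 28 of these 31 nuclei lay in cluster 29, its 101 and 104 nuclei that are no members were used as a second comparison, chosen after the data were seen. Of the whole cluster 75 of 101 and 89 of 112 nuclei held Slc47a1.

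Against the Slc47a1-positive nuclei, 169 of 6295 genes (2.68%) stood at least 2-fold higher in the members of both libraries and 241 (3.83%) at least 2-fold lower. With the nuclei of cluster 29 in their place the counts were 223 and 251, of which 97 and 147 genes were shared. After each nucleus was thinned to 1500 UMIs, the counts against the Slc47a1-positive nuclei were 20 and 104, and 12 of the 169 higher and 61 of the 241 lower genes remained. Of the 169 higher genes 5 remained with at least 4 markers required, so which genes stand in that count depends on these settings. Carriers differed in both directions, with 8 of 23 higher and 5 lower in the members. Slc1a3 was at 978 and 1023 CPM in the members, at 55.2 and 58.0 CPM in the Slc47a1-positive nuclei and at 56.3 and 123 CPM in cluster 29. Slc7a11 stood at 1765 and 1129 CPM against 207 and 41.4 CPM, and at 14.7 and 108 CPM in cluster 29. The order was the same for Slc6a20a, at 1238 and 1506 CPM against 290 and 82.8 CPM, with 75.9 and 213 CPM in cluster 29.

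Other genes high in the members against these nuclei were Ranbp3l, Colec12, Cp, Cemip, Arhgap24 and Dcdc2a. Colec12, a scavenger receptor, stood at 835 and 993 CPM against 82.8 and 24.8 CPM. Cemip, which takes part in the breakdown of hyaluronan, was at 572 and 682 CPM against 55.2 and 8.28 CPM. The collagen chains split, with 3 of 16 higher (Col4a5, Col4a6 and Col26a1) and 5 lower (Col6a1, Col6a2, Col8a2, Col12a1 and Col25a1). Col4a6 was at 13.8 CPM, a single UMI, and at 0 in the Slc47a1-positive nuclei, and at 4.90 and 5.42 CPM in cluster 29. Lama2, at 800 and 596 CPM, and Zic4, at 179 and 182 CPM in the Slc47a1-positive nuclei, stood within 2-fold of the members in both libraries.

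Transcripts low in the members against the Slc47a1-positive nuclei were led by Adamtsl3, a secreted matrix protein of the ADAMTS-like family. It had 2 and 5 UMIs in the members (6.50 and 12.8 CPM), against 428 and 911 CPM in the Slc47a1-positive nuclei and 754 and 1080 CPM in cluster 29. Slc26a7, an anion exchanger, had 0 and 4 UMIs in the members against 248 and 547 CPM. Slc47a2, the paralogue that lies 540 bases from Slc47a1 on chromosome 11, had 0 UMIs in both libraries of the members and stood at 152 and 282 CPM in the Slc47a1-positive nuclei. Reads that fit both paralogues could be split or lost in counting. Slc4a10, a sodium bicarbonate carrier, was at 250 and 346 CPM against 2138 and 5813 CPM. Bnc2, a zinc finger factor, was at 367 and 616 CPM against 1945 and 4563 CPM, and Eya2 at 234 and 310 CPM against 855 and 1482 CPM.

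Ptgds and Gja1 showed that library 1 and library 2 need not give the same ratio here. Ptgds stood at 55.2 and 422 CPM in the Slc47a1-positive nuclei, so the log2 ratio of the members was 4.76 in library 1 and 0.90 in library 2. For Gja1 it was 0.32 and -2.27, with 96.6 and 654 CPM in the Slc47a1-positive nuclei. In cluster 29 Ptgds was at 377 and 437 CPM. The part of the 1 deep nucleus of library 1 in these ratios was not tested.

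**Figure D4:**
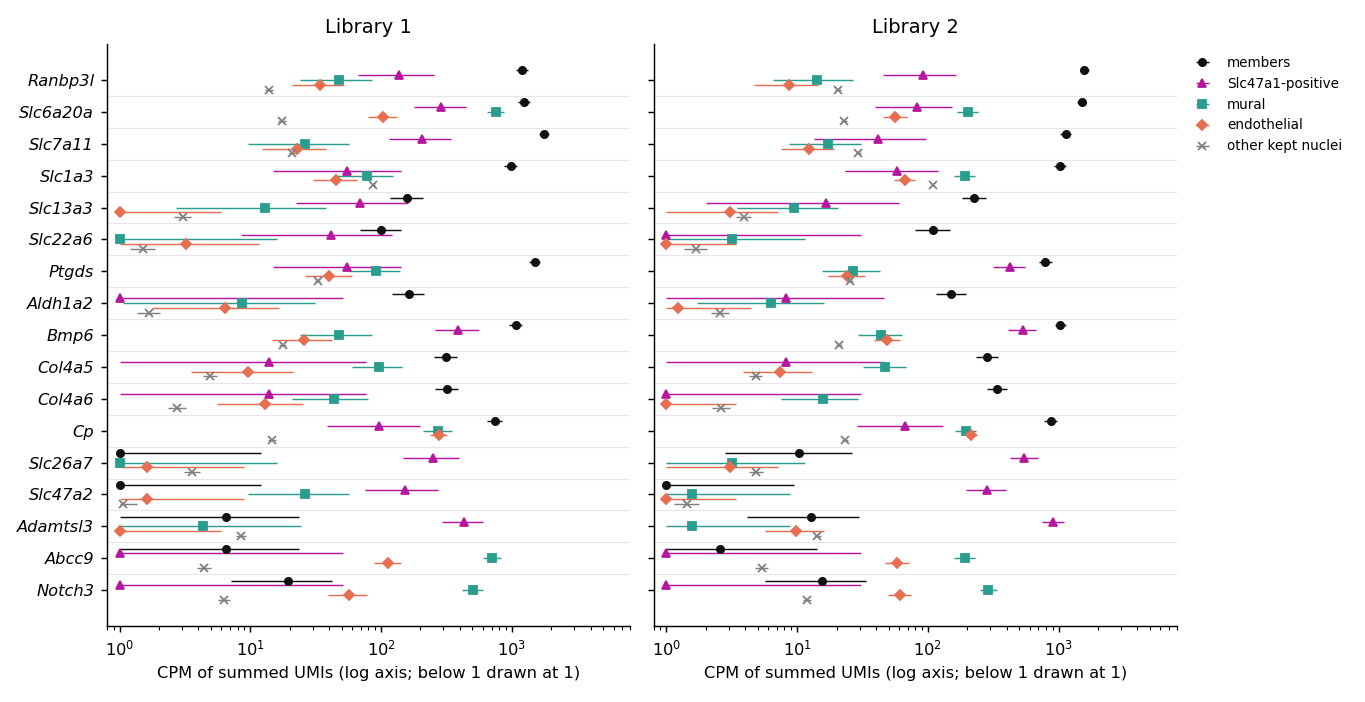
CPM of summed UMIs (x axis, log scale, values below 1 drawn at 1) of 17 genes (y axis) in the members, Slc47a1-positive nuclei of the same rule, mural, endothelial and other nuclei, for library 1 (left) and library 2 (right). Bars are exact 95% Poisson intervals; Slc26a7, Slc47a2 and Adamtsl3 were high in the Slc47a1-positive nuclei and low in the members, and Abcc9 and Notch3 were high in mural nuclei.

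Mural nuclei, the pericytes and smooth muscle cells of the vessel wall, were chosen by at least 3 mural markers and numbered 65 and 120. Against them 101 of 6620 genes (1.53%) stood at least 4-fold higher in the members and 63 (0.952%) at least 4-fold lower. The highest were Slc7a11, Bnc2, Ranbp3l, Eya1, Bmp6, Acss3, Aox3 and Eya2. Eya1 stood at 17.4 and 14.2 CPM in mural nuclei, Bmp6 at 47.9 and 44.1 CPM and Ranbp3l at 47.9 and 14.2 CPM. Acss3, an acyl-CoA synthetase, was at 276 and 121 CPM in the members against 8.70 and 6.30 CPM. Of the carriers 6 of 22 stood higher and 2 lower. Slc6a20a was not past 4-fold in library 1, at 753 and 202 CPM in mural nuclei.

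Among the genes lowest in the members against mural nuclei, Abcc9 and Notch3 had themselves served to choose the mural nuclei, so their values are a description. Abcc9, a chain of the ATP-sensitive potassium channel, had 2 UMIs and 1 UMI in the members and stood at 705 and 192 CPM in mural nuclei. Notch3 was at 19.5 and 15.4 CPM against 505 and 290 CPM. Art3, an ADP-ribosyltransferase gene that had not served to choose them, had 0 UMIs in the members of both libraries and 213 and 96.1 CPM in mural nuclei. Pdgfrb, used as a mural marker, was at 78.0 and 71.8 CPM in the members against 378 and 228 CPM.

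Endothelial nuclei numbered 158 and 332, and a nucleus could be in both this set and the mural one. In the members 162 of 6765 genes (2.39%) stood at least 4-fold higher and 146 (2.16%) at least 4-fold lower than in them. The carrier list split, with 9 of 23 higher and 4 lower. The lower ones were Slc2a1, the glucose carrier of the blood-brain barrier (74.7 and 53.9 CPM in the members against 1080 and 636 CPM), Slco1c1, the iron exporter Slc40a1 and Slco1a4, which was among the markers that chose the endothelial nuclei. Slc22a8 did not set the groups apart, at 146 and 164 CPM in the members and 105 and 136 CPM in endothelial nuclei. The transcription factor list had 10 of 17 higher and 1 lower, Ebf1, at 292 and 285 CPM against 1494 and 1397 CPM.

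Between the libraries, 625 of 7501 genes (8.33%) stood at least 2-fold higher in the members of library 1 and 414 (5.52%) at least 2-fold higher in those of library 2. With the genes of the rule left out of the lists, more matrix genes stood higher in library 2 than in library 1. This was so for 7 of 17 collagen chains against 1 higher in library 1, with a median log2 ratio of library 1 to library 2 of -0.69, beside 0.08 over all genes. Of 23 matrix glycoproteins and laminins 9 stood higher in library 2 and 1 in library 1, with a median of -0.66. The proteoglycans Bgn and Ecm2, 2 of 6, stood higher in library 2 and 0 in library 1. Library 2 also had more members with at least 3 matrix genes, as given above. In the nuclei of cluster 29 that are no members, the 5 matrix genes of the rule were higher in library 2 as well. Col1a1 was there at 39.2 and 126 CPM and Dcn at 34.3 and 193 CPM. Other matrix genes, such as Col25a1 and Lamc1, showed the other order there. In other nuclei Col1a1 stood at 1.59 and 3.39 CPM and Dcn at 12.9 and 13.0 CPM. The lists were not compared between libraries outside the members, and the part of a difference between whole libraries was not tested.

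Single genes show where these differences lay. Bgn, the proteoglycan biglycan, was found in 6 of 63 and 27 of 88 members, at 19.5 and 89.8 CPM, and stood at 25.2 and 119.7 CPM in the members of cluster 26. Col5a2, a chain of type V collagen, was at 55.2 CPM (32.2 to 88.5) in library 1 and 174 CPM (135 to 221) in library 2. Col4a2, of the type IV collagens, was at 29.2 CPM (13.4 to 55.5) and 139 CPM (104 to 181). The intervals of Col5a2 and Col4a2 did not overlap between the libraries, but both genes were picked after their values were seen. How many of all genes do so was not counted, and the levels of both within cluster 26 are not given. Of the rule's own genes, Col1a1 was at 55.2 and 190 CPM and Dcn at 159 and 385 CPM, which is a description of how the nuclei were chosen. Fn1, fibronectin, was at 22.7 and 213 CPM, but the members outside cluster 26 held 481 CPM of it in library 2, and within the cluster it stood at 30.2 and 89.8 CPM. Col25a1, at 58.5 and 503 CPM, stood at 35.2 and 71.1 CPM within cluster 26, while the 17 members outside it held 1444 CPM in library 2, and the nuclei of cluster 29 held 2591 and 2021 CPM.

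Some of the largest differences between the libraries came from 1 nucleus. In library 2 a single nucleus held 92.7% of the UMIs of Col8a1, which stood at 26.0 and 423 CPM, 94.0% of those of Otx2os1 and 93.0% of those of Cngb3. In library 1 a single nucleus held 57.8% of the UMIs of Ttr, the choroid plexus transcript transthyretin, at 208 and 20.5 CPM. Palld, an actin-binding protein, was spread over 24 members of library 2 and stood at 13.0 and 151 CPM, and at 15.1 and 209 CPM in cluster 26. Dpp4, a surface peptidase known from arachnoid and dural fibroblasts, was at 13.0 and 172 CPM, with 465 CPM in the members outside cluster 26 in library 2 and 37.4 CPM in those inside.

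Il1r1, an interleukin 1 receptor, was higher in library 1, at 127 CPM (90.1 to 173) in 17 members against 7.69 CPM (1.59 to 22.5) in 2 members of library 2. Scara5, a ferritin receptor, was found in 8 and 2 members at 61.7 and 7.69 CPM, and Mettl24, a predicted methyltransferase, in 13 and 2 at 61.7 and 5.13 CPM. In endothelial nuclei Il1r1 was at 438 and 238 CPM. Sorbs2os and Gm26883 were higher in library 2 both in the members (13.0 and 162 CPM, 16.2 and 187 CPM) and in other nuclei (31.3 and 280 CPM, 39.1 and 156 CPM). The order of the libraries was thus the same inside and outside the group for both genes. Of 24 carriers outside the rule, Slc22a2 and Abca1 stood at least 2-fold higher in library 2 and 0 in library 1, beside 5.52% and 8.33% of all genes. Bmp6, Ranbp3l and Slc1a3 stood within 2-fold.

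**Figure D5:**
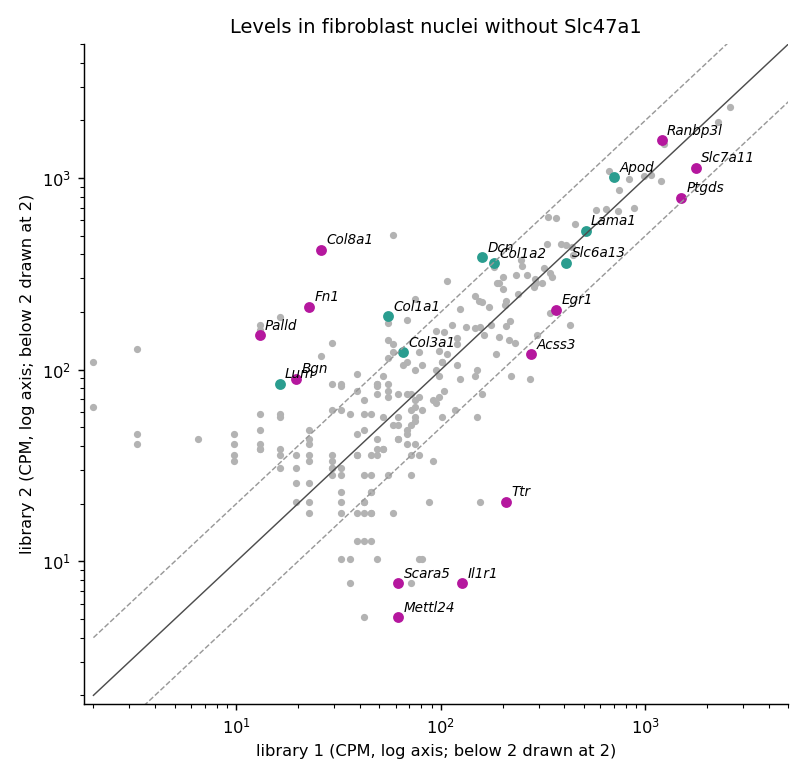
CPM in the members of library 1 (x axis) and library 2 (y axis), both on log scales with values below 2 drawn at 2, for listed and named genes that entered the comparison (points) with some of them labelled (purple, or green for genes of the rule, whose levels are no finding). The solid line marks equal levels and dashed lines 2-fold; Bgn and Fn1 lay above the upper dashed line and Il1r1, Scara5, Mettl24 and Ttr below the lower one.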

How the data were processed

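Nuclei of 2 pooled cortex samples were counted by the authors as raw UMI counts per gene and barcode in 1 matrix of 30905 genes. Cell Ranger 3.1.0 is named per the file headers, whereas Cell Ranger 2.0.1 is listed, beside Seurat 3.1, R 4.0.2 and the build mm10, per the submitters' processing notes. This conflict was not settled, and the treatment of introns and strand is not given in the sources used here. From the deposited counts, each group's UMIs were added up per library and scaled to CPM, with exact 95% Poisson intervals. The members held 307716 and 389879 UMIs. Nothing was tested, since no group has 2 samples. Mural and endothelial nuclei needed at least 3 of their markers and at most 2 of the 8 rule markers.

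The members and gene lists were chosen with earlier results of these data known. Named genes are those of the rule, the 4 highest of each list, the 15 highest against other nuclei, the 10 highest and 10 lowest against Slc47a1-positive nuclei, the 8 each way against mural nuclei and between libraries. Of these, the genes with clear values are described. Other list members were chosen after their values were seen. Some genes that the rule names are not reported here. Clusters came from Leiden clustering in scanpy 1.11.5 (resolution 1, 15 neighbours, 30 components). Scrublet marked 0 and 2 barcodes, too few to use as doublet calls, and doublets were not removed. With simulated counts, 56 of 69 genes raised 4-fold over the Slc47a1-positive nuclei were called at 2-fold. At the 4-fold call over other nuclei, 66 of 66 raised 8-fold were called, but 0 of 71 raised 4-fold. The raised counts were rescaled to a fixed total, so every simulated ratio lay below its named fold. The alternatives were other marker, mitochondrial, doublet, depth and filter settings.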

Additional observations from a re-analysis of the deposited data

How the results depend on the processing

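The share of nuclei was 0.443% and 0.653% with at least 4 of the 8 markers, 1.71% and 2.91% with at least 2, 0.175% and 0.496% with none of the 6 genes of other cell types, and 0.221% and 0.580% without Apod and Lama1 among the markers. Genes at least 4-fold higher than in other nuclei numbered 112 with at least 2 markers, 167 with a mean CPM filter of 50 and 597 with a filter of 1. Against Slc47a1-positive nuclei, those 2-fold higher numbered 39 with at least 4 markers, 46 with none of the 6 genes and 20 after thinning to 1500 UMIs. Those 2-fold lower numbered 119, 137 and 104 under the same settings, 381 with at least 2 markers and 135 with the filter of 50. Against mural nuclei the count was 36 with at least 2 markers, 156 with members of cluster 26 alone and 167 without members over 3 times the median UMIs. Against endothelial nuclei it was 68 with at least 2 markers and 100 with the filter of 50. Between libraries, those higher in library 1 numbered 959 with at least 4 markers, 328 with at least 2, 1087 with none of the 6 genes, 1100 without Apod and Lama1, 144 with the filter of 50, 1306 with a filter of 1 and 947 in cluster 26 alone. Those higher in library 2 numbered 690, 166 and 253 under the first 3 of these, 139 with the filter of 50 and 689 with a filter of 1. The cause was not tested. In cluster 26 alone, 292 of the 293 genes against other nuclei remained among 393, and without the deepest members, an alternative chosen after seeing the data, 293 remained among 437. Of the 169 genes higher than in Slc47a1-positive nuclei, far fewer remained, with 5 at 4 or more markers, 12 after thinning, 27 with none of the 6 genes and 44, of 114 called, with Scrublet scores of 0.2 or more left out. Shares and counts of this kind have no sign, so the alternatives could not reverse them. Of 204 levels 138 lay outside their main counting interval with at least 2 markers. The number was 116 with none of the 6 genes and 110 without the deepest members.

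The members number 63 and 88, so genes of a few UMIs have wide counting intervals, and 1 nucleus can hold most of a gene's UMIs. Doublets were not removed, and 9 members had a Scrublet score of 0.2 or more. No paired analysis was possible because each group has 1 sample and no suffix is tied to one.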
